A study of Mus musculus with 12 samples.

Results

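The genes described here are 10 genes of mast cells, basophils and eosinophils: Cpa3, Ms4a2, Fcer1a, Gzmb, Mcpt8, Prss34, Hdc, Prg2, Epx and Il1rl1. They were followed through blood progenitors of mice with and without Lamtor2. Members were taken as the probe sets, the array's units of measurement, that carry the symbol of 1 of these genes and no other. This gave 9 measured genes, each with 1 probe set, among 19937 genes with such a probe set, while Il1rl1 was not analysed here.

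RNA was measured on 12 Affymetrix arrays, 3 in each of 4 groups. LSK cells are Lin- Sca1+ c-Kit+ marrow cells, the compartment of stem cells and multipotent progenitors, and GMP cells are Lin- Sca1- c-Kit+ CD34+ FcγR+ granulocyte and macrophage progenitors. LSK KO and GMP KO were sorted from C57BL/6J mice labelled Mx1-Cre wt/wt with Lamtor2 f/f alleles, and LSK WT and GMP WT from C57BL/6J mice labelled Mx1-Cre wt/wt with Lamtor2 wt/wt alleles. Lamtor2 encodes a subunit of the Ragulator complex, which anchors the kinase complex mTORC1 to lysosomes. All mice received pIpC by intraperitoneal injection and were sampled on day 14, so the controls share the pIpC exposure. The strain labels write Mx1-Cre wt/wt for both genotypes, while the protocols call the mice of both Mx-Cre, and the presence of the transgene is taken from the protocols. Cre stands under the interferon-inducible Mx1 promoter, which is not restricted to blood progenitors, so the deletion is not limited to the sorted cells. The sources used here give neither age nor sex. The study's design names 3 mice of each genotype as the source of both cell types, but which LSK and GMP arrays share a mouse is not stated.

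Mast cells and basophils arise from bone marrow progenitors and carry the high-affinity IgE receptor, which fires the release of granules when antigen links its bound IgE. The granules hold histamine and families of serine and metallo-proteases, and which proteases they hold marks the cell type. Eosinophils arise from a neighbouring branch and store cationic proteins in place of the chymases and tryptases. Transcription factors of the GATA family act in all 3 lineages, with C/EBP factors and the receptors for IL-3, IL-5 and KIT ligand.

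The sequence before the start of a gene is shown for 4 members because they span the patterns described below. Between KO and WT, Cpa3 passed the test in both cell types, Fcer1a in neither, Prss34 in GMP and Gzmb in LSK. The stretches come from RefSeq promoter windows of assembly GRCm38.p6, read 5′ to 3′ on the gene's strand and ending at or before its annotated start. Capitals mark letters of a GATA motif, AGATAA or AGATAG or TGATAA or TGATAG, searched on both strands.
Cpa3, chr3:20242210-20242331, minus strand: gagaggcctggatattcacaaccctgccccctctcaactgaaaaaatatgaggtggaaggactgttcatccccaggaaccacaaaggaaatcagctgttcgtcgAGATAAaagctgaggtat
Fcer1a, chr1:173227233-173227379, minus strand: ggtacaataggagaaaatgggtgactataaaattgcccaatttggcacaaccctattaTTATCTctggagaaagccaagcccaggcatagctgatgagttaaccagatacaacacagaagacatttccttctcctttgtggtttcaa
Prss34, chr17:25298244-25298393, plus strand: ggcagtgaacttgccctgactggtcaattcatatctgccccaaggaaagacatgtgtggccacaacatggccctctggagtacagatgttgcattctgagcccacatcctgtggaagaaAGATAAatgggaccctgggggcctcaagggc
Gzmb, chr14:56262335-56262484, minus strand: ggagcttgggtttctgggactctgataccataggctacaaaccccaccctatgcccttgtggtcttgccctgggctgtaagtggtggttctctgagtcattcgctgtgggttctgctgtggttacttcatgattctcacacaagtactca
Positions are counted from the start used for each window. In Cpa3 and Fcer1a that start lies inside the gene's annotated extent, and their printed stretches end at -29 and -4. Capitals stand at bases -46 to -41 in Cpa3 and at -92 to -87 in Fcer1a on the opposite strand. In Prss34 they stand at -31 to -26. Gzmb has none of these letters in its window.

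Of the 9 measured members, 8 matched a promoter window, and Prg2 is the member without one. GATA letters were found in the windows of 5 of the 8, Cpa3, Fcer1a, Hdc, Ms4a2 and Prss34, beside 29.8% of all 32851 windows. Ms4a2 held 3 copies, beginning at -224, -37 and -11, of which those at -37 and -11 lie inside the gene's annotated extent. The windows of Hdc and Mcpt8 lie wholly inside the annotated extent of their genes, so letters found in them are not before the annotated start. The RUNX letters TGTGGT lay in 4 of the 8, Cpa3, Fcer1a, Gzmb and Mcpt8, beside 16.8% of all windows, and Gzmb held 2 copies on its own strand. The E-box letters CACGTG or CATGTG lay in 2 of the 8, Fcer1a and Prss34, beside 20.4% of all windows. The PU.1 letters GAGGAAG were in none of the 8, beside 13.6% of all windows. No searched motif contains another, and a match is a description of letters, not of a bound site.

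Lamtor2 itself read between 10.31 and 10.82 in the 6 WT arrays and between 4.95 and 5.77 in the 6 KO arrays, so that no array went against its genotype label. All levels are deposited RMA values on the log2 scale, in which 1 unit is a doubling of signal. Levels of different probe sets are not compared with each other. The highest level of the deleted gene, 5.77, serves as a mark of dim signal, and values at or below it are called the level of a deleted gene. It is the reading of 1 probe set. The floor of other probe sets can differ, as with Mcpt1, whose LSK WT mean was 3.28. A difference against a group mean at or below the mark is called a lower bound by this convention, and a floor was not shown for each gene. LSK markers (6 of 8 listed measured) had a mean of 9.40 to 9.89 in LSK arrays and 7.20 to 7.78 in GMP arrays, and the 8 GMP markers had 9.18 to 11.04 and 11.72 to 12.04. Across 12 arrays, medians ran from 5.96 to 6.18. The array least like its group was GMP KO replicate 1, with a mean within-group correlation of 0.979 and an array weight of 0.19, the lowest of the 12. Differences are between group means, and SE is their standard error in the fit. Each was tested with limma, with Benjamini-Hochberg adjustment over all 19937 genes and a threshold of 0.05. The p-values measure the spread between arrays of these mice. In sorted populations, more cells of a type and more RNA per cell cannot be told apart.

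In LSK, loss of Lamtor2 went with higher levels of 5 of the 9 measured members in limma's fit: Cpa3, Ms4a2, Gzmb, Mcpt8 and Hdc. None fell, in a fit where 2.49% of all genes rose and 1.96% fell. Shares over all genes are given here and below for scale only, since members and lists were chosen with earlier results of these data known. At an unadjusted p under 0.05, 6 members were higher and 1 was lower, where 1626 and 1547 of all 19937 genes were. The median difference of the 9 was 1.75, with -0.01 over all genes. In GMP, 3 members rose, Cpa3, Mcpt8 and Prss34, and 1 fell, Epx, where 5.78% of all genes rose and 10.3% fell. At an unadjusted p under 0.05, 6 members were higher and 1 was lower in GMP, where 2160 and 3435 of all 19937 genes were. The median difference was 0.99, with 0.01 over all genes.

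**Figure D1:**
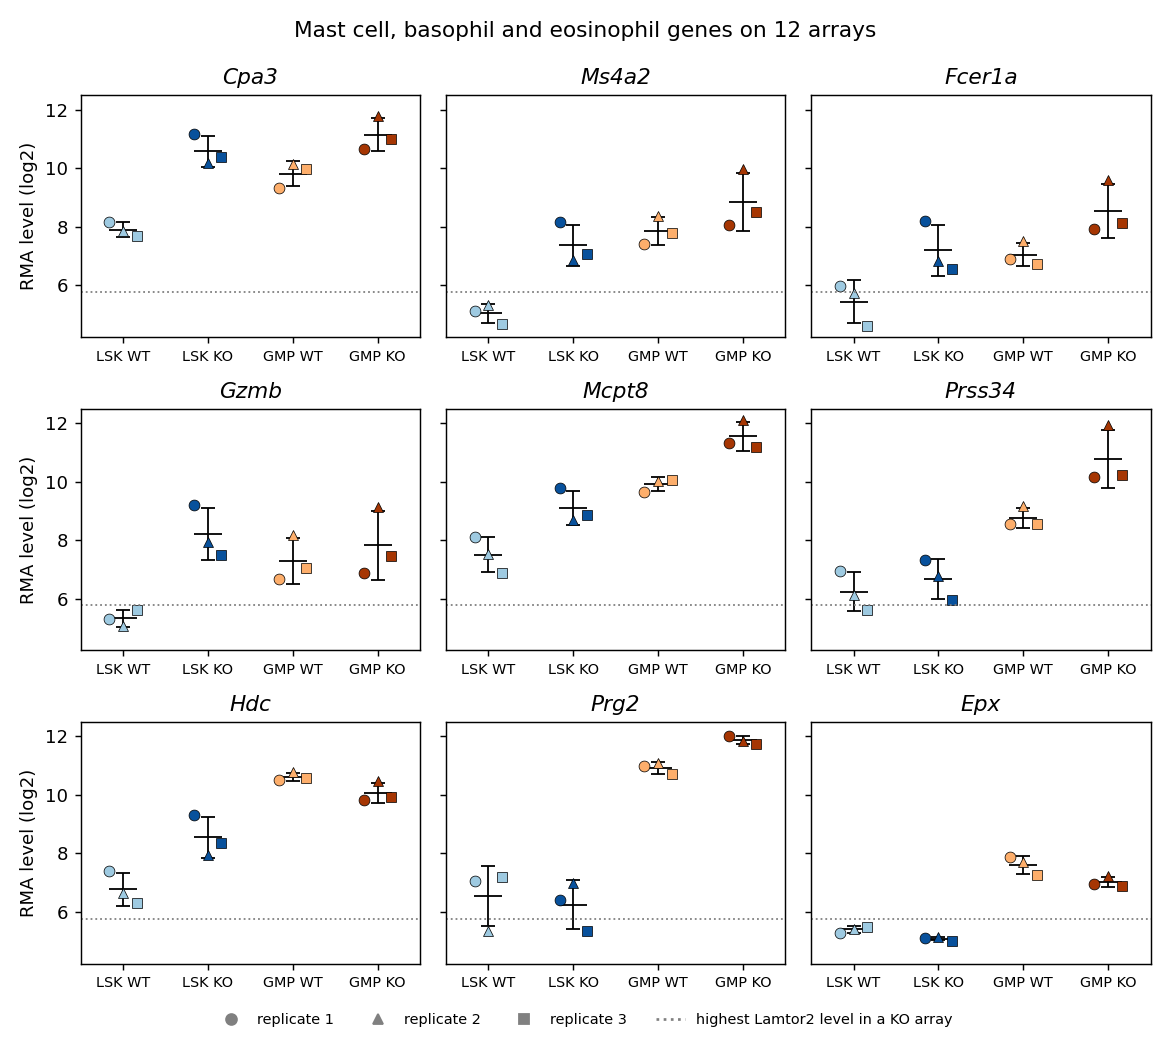
RMA level (log2, y axis) of each of the 9 measured genes in LSK WT, LSK KO, GMP WT and GMP KO. Symbols are single arrays by replicate number, bars are the mean and SD of 3 arrays, and the dotted line is the highest Lamtor2 level in a KO array, 5.77. Gzmb, Ms4a2 and Epx lie below that line in all 3 LSK WT arrays, and replicate 1 is the highest LSK KO array for all genes but Prg2 and Epx.

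The high-affinity IgE receptor has an α chain, Fcer1a, that binds IgE and a β chain, Ms4a2, that amplifies the signal. Ms4a2 read 5.12, 5.33 and 4.69 in the LSK WT arrays and 8.17, 6.87 and 7.07 in LSK KO. The WT arrays were all at the level of a deleted gene, and every KO array was higher. The difference, a lower bound, was 2.32 (SE 0.44), with a limma adjusted p of 0.00777. In GMP, Ms4a2 read 7.42, 8.38 and 7.78 in WT and 8.07, 9.97 and 8.50 in KO. The lowest KO array fell below the highest WT array, and replicate 2 was the highest of both groups. The difference of 0.99 (SE 0.44) did not pass in limma (adjusted p = 0.157). Without GMP KO replicate 1 it was 1.37 and passed (limma adjusted p = 0.0463), and without GMP KO replicate 2 it was 0.42 (limma adjusted p = 0.456).

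Fcer1a read 5.97, 5.75 and 4.61 in LSK WT and 8.19, 6.84 and 6.54 in LSK KO. The groups did not overlap, but their spread was wide, with SDs of 0.73 and 0.88 over 3 arrays each. The difference was 1.75 (SE 0.49; 95% interval 0.69 to 2.81), a lower bound, and missed the threshold (limma adjusted p = 0.0639). In GMP the WT arrays read 6.91, 7.51 and 6.74 and the KO arrays 7.92, 9.61 and 8.12. Here too every KO array was above every WT array. The difference was 1.50 (SE 0.49; 95% interval 0.44 to 2.56), also short of the threshold (limma adjusted p = 0.0543). Fcer1a is the member closest to the threshold in both cell types. Its limma adjusted p ranged from 0.0263 to 0.231 in LSK and from 0.0307 to 0.169 in GMP as single arrays were left out. It passed in LSK without GMP KO replicate 1 (0.0346) or 2 (0.0263), and in GMP without LSK WT replicate 3 (0.0441), LSK KO replicate 1 (0.032) or GMP KO replicate 1 (0.0307). It also passed with array weights (0.0167 in LSK and 0.0442 in GMP), in LSK when only the LSK arrays were fitted (0.0409), and in GMP without the dimmest 30% of genes (0.046). Its GMP difference was 0.97 without GMP KO replicate 2.

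Among the granule proteases, Cpa3, a carboxypeptidase of mast cells and basophils that trims peptides from the C-terminal end, read 8.17, 7.87 and 7.68 in LSK WT and 11.18, 10.20 and 10.37 in LSK KO. The lowest KO array was above the highest WT array by more than the range of either group. Cpa3 was 6.39-fold higher in LSK KO (difference 2.68, SE 0.30, limma adjusted p = 2.66e-04). In GMP it read 9.33, 10.15 and 9.97 in WT and 10.66, 11.79 and 11.02 in KO. No KO array overlapped with WT. The GMP difference of 1.34 (SE 0.30) was 2.53-fold and passed (limma adjusted p = 0.00884). In the order of its group means, LSK KO at 10.58 ± 0.53 (SD, n = 3) stood above GMP WT at 9.82 ± 0.43 with no overlap of arrays, and below GMP KO at 11.15 ± 0.58 with overlap.

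Mcpt8, a serine protease known as a basophil marker, read 8.11, 7.53 and 6.88 in LSK WT and 9.77, 8.69 and 8.85 in LSK KO. It read 9.64, 10.04 and 10.07 in GMP WT and 11.33, 12.12 and 11.20 in GMP KO. In both cell types all KO arrays were above all WT arrays. Mcpt8 was 3.03-fold higher in LSK KO (1.60, SE 0.33, limma adjusted p = 0.0138) and 3.11-fold higher in GMP KO (1.64, SE 0.33, limma adjusted p = 0.00436). The LSK call was lost without replicate 2 of LSK WT (0.0529), replicate 3 of LSK WT (0.0622) or replicate 1 of LSK KO (0.0535). Its effects in the cell types differed by -0.04, with a 95% interval of -1.04 to 0.97.

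Prss34, a second basophil serine protease, read 6.94, 6.14 and 5.62 in LSK WT and 7.31, 6.77 and 5.96 in LSK KO. These arrays were interleaved. The LSK difference was 0.45 (SE 0.46; 95% interval -0.54 to 1.44; limma adjusted p = 0.751). In GMP, Prss34 read 8.55, 9.15 and 8.56 in WT and 10.17, 11.92 and 10.23 in KO. All KO arrays were above WT, with replicate 2 far above the others. The GMP difference of 2.02 (SE 0.46) was 4.05-fold (limma adjusted p = 0.00878), and it was 1.44 without GMP KO replicate 2, still past the threshold (0.0383).

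Gzmb, granzyme B, a protease of cytotoxic lymphocytes that mast cells and basophils can also store, read 5.29, 5.06 and 5.61 in LSK WT and 9.21, 7.95 and 7.48 in LSK KO. All WT arrays were at the level of a deleted gene and all KO arrays were higher. The difference was 2.89 (SE 0.54), a lower bound by the dim mark, or 7.44-fold (limma adjusted p = 0.00777). In GMP it read 6.67, 8.18 and 7.04 in WT and 6.88, 9.13 and 7.45 in KO. The groups overlapped, and replicate 2 was the highest array in each. The GMP difference was 0.52 (SE 0.54; 95% interval -0.65 to 1.69; limma adjusted p = 0.600), and -0.13 without GMP KO replicate 2. Gzmb was the sole measured member whose mean was highest in LSK KO, though these arrays overlapped with those of both GMP groups.

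Because Gzmb also belongs to lymphocytes, T and NK cell markers were read beside it. Of 10 listed, 9 were measured, with list means of 5.40 to 5.64 in LSK WT, 5.55 to 5.76 in LSK KO, 5.62 to 5.69 in GMP WT and 5.89 to 5.95 in GMP KO. In LSK KO, 6 of the 9 (Cd3g, Cd8a, Ncr1, Klrb1c, Klrk1 and Eomes) were at or below the level of a deleted gene. In LSK 0 of the 9 passed in limma, with 2 higher and 1 lower at an unadjusted p under 0.05. The LSK KO arrays of Nkg7 (0.33, limma adjusted p = 0.0927) and Cd4 (0.86, limma adjusted p = 0.343) were all above WT. The effect on Nkg7 in LSK minus that in GMP was 0.85 (limma adjusted p = 0.00476). In GMP, Cd4 rose by a lower bound of 2.83 (limma adjusted p = 5.25e-04), and Nkg7 (-0.52) and Klrk1 (-0.64, with both means at the level of a deleted gene) were lower. Of 10 other granzyme and perforin genes, 0 passed in limma in either cell type. At an unadjusted p under 0.05 there were 0 in LSK and 1 in GMP, and the list medians were -0.09 and 0.04. Gzma and Gzmc had group means of 4.03 to 4.16 and 3.61 to 3.86, at the level of a deleted gene in every group. Perforin, Prf1, had 5.75 to 6.08, near that level. For genes this dim, a difference that did not pass does not show that they stayed the same.

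Hdc, histidine decarboxylase, the enzyme that makes histamine, read 7.38, 6.63 and 6.30 in LSK WT and 9.31, 7.96 and 8.37 in LSK KO. The groups did not overlap. Hdc was 3.43-fold higher in LSK KO (1.78, SE 0.32, limma adjusted p = 0.00571). In GMP it read 10.50, 10.78 and 10.59 in WT and 9.82, 10.47 and 9.93 in KO. Here the KO arrays were all below the WT arrays. The GMP difference of -0.55 (SE 0.32; 95% interval -1.23 to 0.13) did not pass (limma adjusted p = 0.289). Hdc was thus higher in the KO arrays of LSK and lower in those of GMP, with the effects differing by 2.32 (SE 0.45, limma adjusted p = 0.00846).

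Of the eosinophil granule proteins, Prg2 encodes major basic protein and Epx encodes eosinophil peroxidase. Prg2 read 7.06, 5.36 and 7.20 in LSK WT and 6.40, 6.99 and 5.33 in LSK KO. These arrays were mixed, with 1 array near the level of a deleted gene in each group. The LSK difference was -0.30 (SE 0.44; 95% interval -1.24 to 0.64; limma adjusted p = 0.849). In GMP, Prg2 read 10.98, 11.08 and 10.71 in WT and 12.01, 11.86 and 11.73 in KO. Each KO array was above each WT array, and the SDs were 0.19 and 0.14. The GMP difference was 0.95 (SE 0.44) and did not pass in the fit of 12 arrays (limma adjusted p = 0.175), in which the wide LSK spread of Prg2 enters its SE. Fitted on the 6 GMP arrays only, it passed (limma adjusted p = 0.00439).

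Epx read 5.29, 5.42 and 5.50 in LSK WT and 5.10, 5.13 and 5.02 in LSK KO. The KO arrays were all lower, but both groups were at the level of a deleted gene, and the difference of -0.32 did not pass (limma adjusted p = 0.280). In GMP it read 7.87, 7.71 and 7.27 in WT and 6.94, 7.21 and 6.90 in KO. No KO array reached the lowest WT array. Epx was 1.51-fold lower in GMP KO (-0.60, SE 0.14, limma adjusted p = 0.0110). The call was lost without GMP WT replicate 1 (0.056) or 2 (0.0553), and when only the 6 GMP arrays were fitted (0.0649). In GMP KO, then, the arrays of Prg2 lay above WT and those of Epx below.

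**Figure D2:**
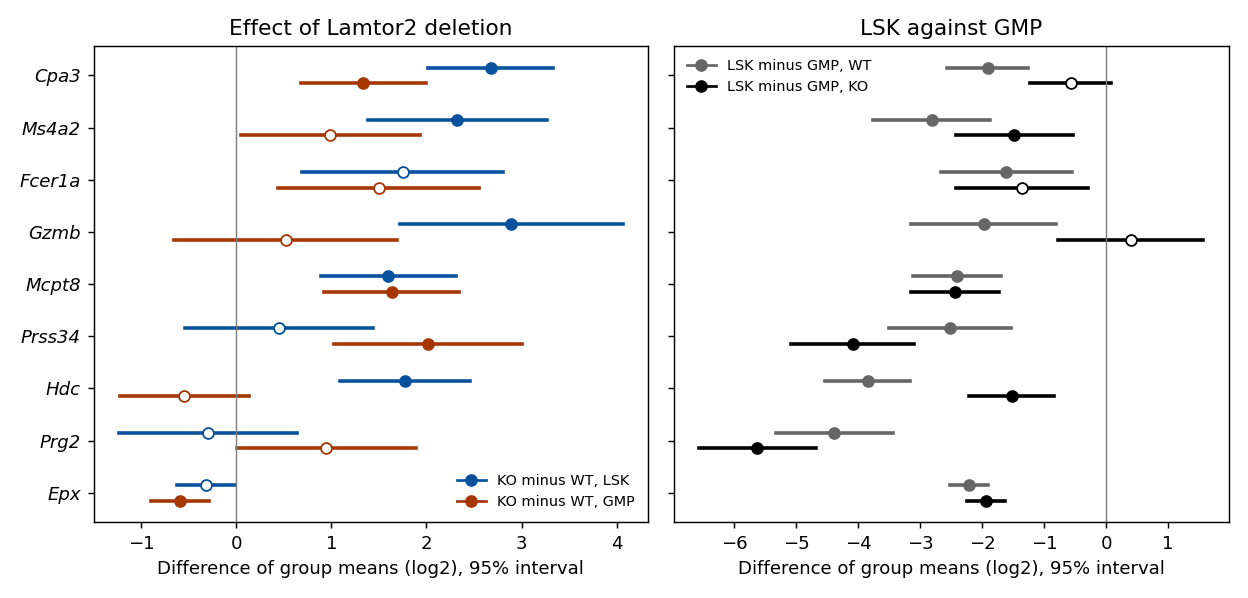
Differences of group means (log2, x axis) with 95% intervals for the 9 measured genes: on the left KO minus WT in LSK and in GMP, on the right LSK minus GMP within WT and within KO. Filled circles passed the limma threshold of 0.05 and open circles did not. Hdc is the sole gene with a filled circle to the right of 0 in LSK and a GMP value to the left of 0, at 1.78 and -0.55.

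The difference between the effects in LSK and GMP was tested for each member in the same fit, without any pairing of arrays by mouse. Of the 9, 1 passed with a more positive effect in LSK, Hdc, and 0 with a more positive effect in GMP, where 5.34% and 2.64% of all genes passed. The sign is that of the LSK effect minus the GMP effect, not of their sizes. At an unadjusted p under 0.05 there were 4 and 1, where 2643 and 1797 of all 19937 genes passed. The median was 0.28, with -0.03 over all genes. Cpa3 differed by 1.34 (SE 0.43, limma adjusted p = 0.0766) and Gzmb by a lower bound of 2.37 (SE 0.77, 95% interval 0.72 to 4.03, limma adjusted p = 0.0792). Ms4a2 differed by a lower bound of 1.34 (SE 0.62, limma adjusted p = 0.223). All 3 passed without GMP KO replicate 2, the array where 8 of the 9 members were highest in their group (limma adjusted p of 0.0206, 0.0129 and 0.0272). For Prss34 the difference was -1.57 (95% interval -2.97 to -0.17, limma adjusted p = 0.170). Prg2 differed by -1.24 (limma adjusted p = 0.260), and by -1.84 without LSK WT replicate 2 (0.0417) and -0.79 without LSK KO replicate 3 (0.512). Fcer1a differed by 0.25, resting on a dim LSK WT mean, with a 95% interval of -1.24 to 1.75 (limma adjusted p = 0.882). Hdc was thus the sole member of the 9 to pass with all arrays in, and for the others a difference that did not pass does not show like effects.

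In WT mice all 9 measured members were lower in LSK than in GMP, where 9.32% of all genes were lower and 10.3% higher. The median difference was -2.41, with -0.03 over all genes. Among the 5 members with both means above the dim mark, the widest gap was that of Prg2, -4.38 or 20.9-fold (limma adjusted p = 9.20e-06), followed by Hdc, -3.85 or 14.4-fold (limma adjusted p = 1.99e-06). Fcer1a differed by -1.61, a lower bound (limma adjusted p = 0.0331). The calls of Fcer1a and Gzmb (-1.98, a lower bound, limma adjusted p = 0.0194) were lost when single arrays were left out, with adjusted p up to 0.15 and 0.0993, and in limma's fit with trend and robust options (0.0853 and 0.0635).

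Between the KO populations 6 of the 9 were lower in LSK than in GMP and 0 were higher, where 5.79% and 10.1% of all genes were. At an unadjusted p under 0.05, 7 were lower and 0 higher, where 2874 and 3489 of all 19937 genes were. The 6 were Ms4a2, Mcpt8, Prss34, Hdc, Prg2 and Epx. Prg2 stood 49.4-fold apart (-5.63, limma adjusted p = 5.32e-06) and Prss34 17.1-fold (-4.09, limma adjusted p = 7.84e-05). Mcpt8 kept nearly the gap of WT mice, -2.44 against -2.41. Cpa3 differed by -0.57 (95% interval -1.23 to 0.09, limma adjusted p = 0.216) and Gzmb by 0.40 (95% interval -0.78 to 1.57, limma adjusted p = 0.635). Fcer1a differed by -1.36 (limma adjusted p = 0.0779). The Ms4a2 call (-1.48, limma adjusted p = 0.0357) was lost with some single arrays left out, up to 0.136, and in a fit of the KO arrays alone (0.119). These comparisons use the same arrays as the KO effects and are not independent of them.

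Members varied together within groups. LSK KO replicate 1 was the highest array of its group for 7 of the 9, all but Prg2 and Epx. GMP KO replicate 2 was the highest for 8 of the 9, all but Prg2, and GMP WT replicate 2 for 7 of the 9. In LSK WT, replicate 1 was the highest for 5 and replicate 3 the lowest for 6. Replicates of a group have no order, so these arrays are named to show which ones carry the spread. Prg2 and Epx did not follow the other 7 in LSK KO.

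The mean of the 9 members was 6.59, 6.12 and 6.01 in LSK WT and 8.29, 7.49 and 7.22 in LSK KO. It was 8.65, 9.22 and 8.75 in GMP WT and 9.31, 10.45 and 9.45 in GMP KO. Markers of other cells moved with some of these values. The 8 GMP markers averaged 10.09, 9.49 and 9.18 in LSK WT and 11.04, 10.28 and 10.40 in LSK KO. Like the members they were higher in every LSK KO array than in any LSK WT array and highest in LSK KO replicate 1. Of these markers 3 rose in LSK KO: Fcgr3, an Fcγ receptor of the GMP gate (2.36), Ctsg, the neutrophil and mast cell protease cathepsin G (1.81), and Ms4a3 (1.89), each past the limma threshold. The Ms4a3 call was lost with some single arrays left out, up to 0.171. In GMP the same list averaged 11.91 to 12.04 in WT and 11.72 to 11.84 in KO. There Prtn3 was lower (-0.56) and Kit higher (0.43) in KO, calls lost with some single arrays left out. LSK markers averaged 7.20 to 7.49 in GMP WT and 7.52 to 7.78 in GMP KO, where Flt3 (1.26) rose along with Kit. In LSK they averaged 9.71 to 9.89 in WT and 9.40 to 9.76 in KO. Hlf fell in LSK KO (-0.55), a call lost with some single arrays left out.

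The 10 macrophage markers averaged 6.11, 6.14 and 5.87 in LSK WT and 6.81, 7.87 and 7.10 in LSK KO, and 6.72, 6.65 and 6.60 in GMP WT and 8.49, 8.91 and 9.09 in GMP KO. In limma's fit 5 of 10 rose in LSK and 7 of 10 in GMP, with Cd68, Maf and C1qc among them in both. The LSK count ran from 4 to 8, with 8 without GMP KO replicate 1, with array weights and when only the LSK arrays were fitted. Among the LSK KO arrays this list was lowest in replicate 1, the array where 7 members were highest. Mature neutrophil markers (8 measured) had list means of 7.60 to 9.65 in LSK WT, 7.17 to 9.03 in LSK KO, 7.61 to 9.86 in GMP WT and 7.39 to 9.33 in GMP KO, with overlap between genotypes. Of these markers, Ly6g was lower in GMP KO (-1.52, limma adjusted p = 0.027), with both means at the level of a deleted gene. That call was lost with some single arrays left out, up to 0.0942. Group 2 innate lymphoid markers (5 of 6 measured) averaged 5.43 to 5.74 in LSK WT, 5.59 to 5.99 in LSK KO, 4.63 to 4.93 in GMP WT and 5.67 to 6.00 in GMP KO. Of these, Il7r, the IL-7 receptor chain, rose by a lower bound of 1.91 in LSK (limma adjusted p = 0.0211) and of 4.66 in GMP (limma adjusted p = 1.29e-05), while the list medians were -0.11 and 0.07. The Il7r call in LSK was lost with some single arrays left out, up to 0.0936. Klrg1 and Il2ra were at or below the level of a deleted gene in all groups.

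Plasmacytoid dendritic cell markers (5 of 6 measured) averaged 7.36 to 7.53 in LSK WT, 7.95 to 8.44 in LSK KO, 7.10 to 7.20 in GMP WT and 7.35 to 7.79 in GMP KO. In LSK 1 of them rose, the chemokine receptor Ccr9, by a lower bound of 3.88 (limma adjusted p = 3.15e-05), and 1 fell, Cox6a2 (-0.47, limma adjusted p = 0.0377), with a list median of 0.12. In GMP, Siglech and Ccr9 rose by lower bounds of 0.96 and 1.07 (limma adjusted p of 0.0227 and 0.0388), with a median of 0.22. The calls of Cox6a2 in LSK and of Siglech and Ccr9 in GMP were lost with some single arrays left out, and Siglech was 0.60 without GMP KO replicate 2. Megakaryocyte and erythroid markers (4 of 8 measured) averaged 7.24 to 7.77 in LSK WT and 6.64 to 7.37 in LSK KO, with overlap. Pf4, a platelet chemokine, fell by 2.33 in LSK KO (limma adjusted p = 0.0497), with no overlap of arrays, a call lost with most single arrays left out (up to 0.182). The part of these marker lists in the members' differences was not tested.

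**Figure D3:**
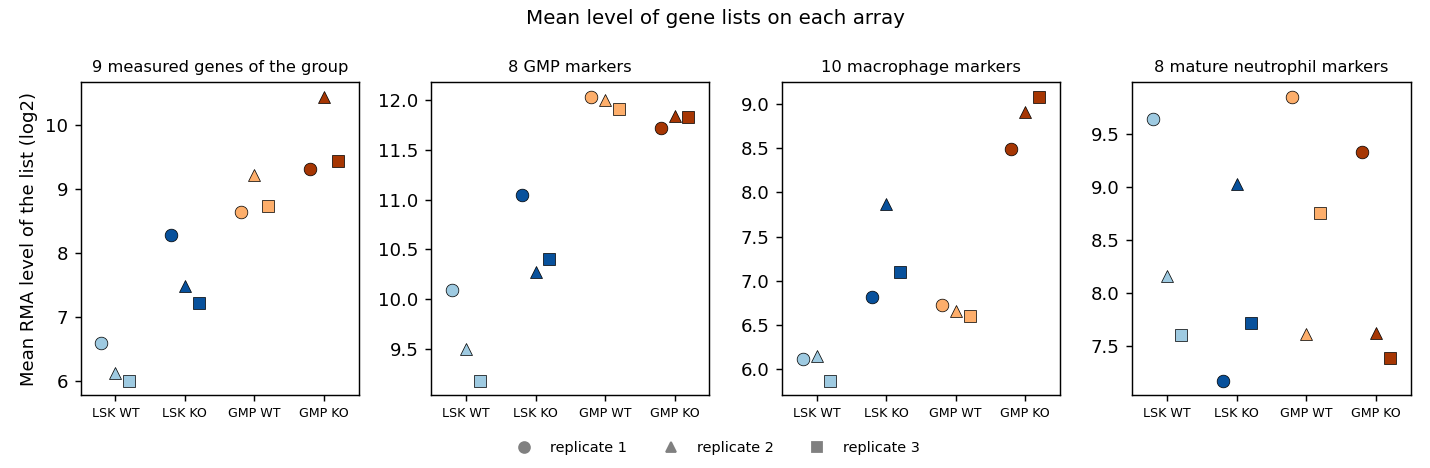
Mean RMA level (log2, y axis, a separate scale in each panel) of 4 gene lists on each array: the 9 measured genes described here, 8 GMP markers, 10 macrophage markers and 8 mature neutrophil markers. Symbols are replicate numbers. The 9 genes and the GMP markers are both highest in replicate 1 of LSK KO, at 8.29 and 11.04, where the macrophage markers are lowest of that group, at 6.81.

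Other genes of the same cells were read from lists. Of 24 other mast cell and basophil effector genes, 23 were measured. In LSK 3 rose, Ctsg, Cd63 and Cyp11a1, and 1 fell, Gcsam, and the list median was 0.11. Cyp11a1, the steroid-making enzyme of mitochondria, ranged from 4.82 to 5.16 in LSK WT, 6.47 to 7.81 in LSK KO, 5.29 to 6.00 in GMP WT and 7.45 to 9.62 in GMP KO. No KO array overlapped with WT in either cell type. It rose by a lower bound of 2.09 in LSK (SE 0.44, limma adjusted p = 0.0157) and of 3.12 in GMP (SE 0.44, limma adjusted p = 4.01e-04). The LSK call was lost with single LSK arrays left out, up to 0.066. In GMP 5 of the 23 rose and 0 fell, with a median of 0.19, and at an unadjusted p under 0.05 there were 8 and 1. Among them were Cd63, a tetraspanin of granule membranes (0.72 in GMP, limma adjusted p = 1.26e-04), and Ndst2, an enzyme of heparin synthesis (1.57, limma adjusted p = 0.0017). As single arrays were left out or settings changed, the count that rose ran from 2 to 6 in LSK and from 3 to 8 in GMP.

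Of 4 proteases of connective tissue mast cells, named after their values were seen, 3 were dim. The tryptase Tpsb2 had group means of 5.19 to 5.43, the tryptase Tpsab1 of 4.77 to 4.89 and the chymase Mcpt4 of 3.95 to 4.21. All lay below 5.77 in every group, at the level of a deleted gene. The chymase Cma1 read 4.81, 4.96 and 5.31 in LSK WT and 6.50, 6.04 and 5.73 in LSK KO. Every KO array was higher and the LSK KO mean, 6.09, was above the mark. The difference, a lower bound of 1.07 (SE 0.32), did not pass (limma adjusted p = 0.0807). In GMP, Cma1 differed by 0.49 (limma adjusted p = 0.357), with both means below the mark. Cpa3 stood above the mark in every array.

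Of 10 other eosinophil genes 7 were measured. In LSK 0 passed in limma, and 0 did so at an unadjusted p under 0.05. Among them, Prg3 and Ear6 had LSK means of 5.33 to 5.46 and 4.61 to 4.63, at the level of a deleted gene in both genotypes. In GMP 1 rose, Prg3, a relative of major basic protein (0.83, SE 0.25, limma adjusted p = 0.0364), and 2 fell, the eosinophil-associated ribonuclease Ear6 (by a lower bound of 1.13, limma adjusted p = 0.038) and the factor Cebpe of terminal granulocyte maturation (-0.60, limma adjusted p = 0.0301). Each of these 3 calls was lost with some single array left out, with adjusted p up to 0.119, 0.185 and 0.0962, and the Ear6 difference was -0.74 without GMP KO replicate 1. The Cebpe call was lost also with repeated quantile normalization (0.165). The list medians were 0.01 and 0.00.

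Some of the genes that signal below the IgE receptor rose in KO cells. Of 13 measured, 3 rose in LSK, Fcer1g, Lat2 and Gab2, and 5 in GMP, the same 3 with Lat and Plcg1, with medians of 0.18 and 0.36. The GMP count ran from 3 to 6 over the other settings and single arrays left out, 3 without GMP WT replicate 1 or 3 and with arrays centred on their medians. In limma's fits 0 fell in either cell type, and 0 were lower at an unadjusted p under 0.05. Fcer1g, the γ chain that the IgE receptor shares with Fcγ receptors, read 9.45, 9.19 and 8.97 in LSK WT and 10.84, 11.25 and 10.86 in LSK KO. All KO arrays were higher, by 1.78 (SE 0.13, limma adjusted p = 9.71e-06). In GMP it differed by 0.98 (SE 0.13, limma adjusted p = 2.66e-04). Lat2, an adaptor below the receptor, rose by 1.39 in LSK and 1.23 in GMP (limma adjusted p of 0.00449 and 0.00346). Fcer1g and Lat2 are also used by macrophages, of whose 10 markers 5 rose in LSK and 7 in GMP. Any part of macrophages in the rise of Fcer1g and Lat2 was not tested.

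Among 12 receptors for IL-33, IL-3, IL-5, KIT ligand, TSLP, IL-18 and IL-9, the β chain genes Csf2rb and Csf2rb2 rose in both cell types with all arrays in. Csf2rb, the chain common to the receptors for IL-3, IL-5 and GM-CSF, rose by 1.74 in LSK (SE 0.18, limma adjusted p = 1.02e-04) and by 0.60 in GMP (SE 0.18, limma adjusted p = 0.0344). Its GMP value was 0.33 without GMP KO replicate 2 and did not pass (0.0566). The GMP call of Csf2rb was also lost without any 1 of the GMP WT arrays, up to 0.118. It was lost too with arrays centred on their medians (0.0653) and when only the GMP arrays were fitted (0.127). Csf2rb2, the IL-3 specific β chain of mice, rose by 1.43 and 1.33 (limma adjusted p of 0.00103 and 5.93e-04). In LSK 2 rose and 1 fell, Il18r1 (-1.04, limma adjusted p = 0.00743). In GMP 6 rose, among them Il18rap (1.14, limma adjusted p = 6.26e-04). The count that rose in GMP ran from 3 to 7 over the other settings and single arrays left out.

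Of 13 transcription factors of these lineages, 2 rose in LSK and 0 fell, and in GMP 0 rose and 1 fell. At an unadjusted p under 0.05 these were 3, 1, 1 and 1. Those that rose in LSK were Cebpa and Id1, an inhibitor of helix-loop-helix factors (0.56, limma adjusted p = 0.0342). Id1 lost its call in 8 of the fits with a single array left out, up to 0.135. Cebpa, a factor of granulocyte and macrophage progenitors, read 7.93, 7.78 and 8.06 in LSK WT and 9.23, 9.04 and 9.17 in LSK KO, a difference of 1.23 (SE 0.15, limma adjusted p = 4.00e-04). Irf8, which directs monocyte over granulocyte fate, fell by 1.19 in GMP KO (limma adjusted p = 7.44e-05). Gata2, named after its values were seen because GATA letters were searched above, read 9.64, 9.84 and 9.79 in LSK WT and 10.26, 9.69 and 9.98 in LSK KO. It read 8.18, 8.77 and 8.40 in GMP WT and 8.40, 10.09 and 8.83 in GMP KO. The genotypes overlapped in both cell types, and its differences of 0.22 and 0.66 did not pass (limma adjusted p of 0.849 and 0.198). Like 8 of the members, Gata2 was highest in replicate 2 among the GMP KO arrays.

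**Figure D4:**
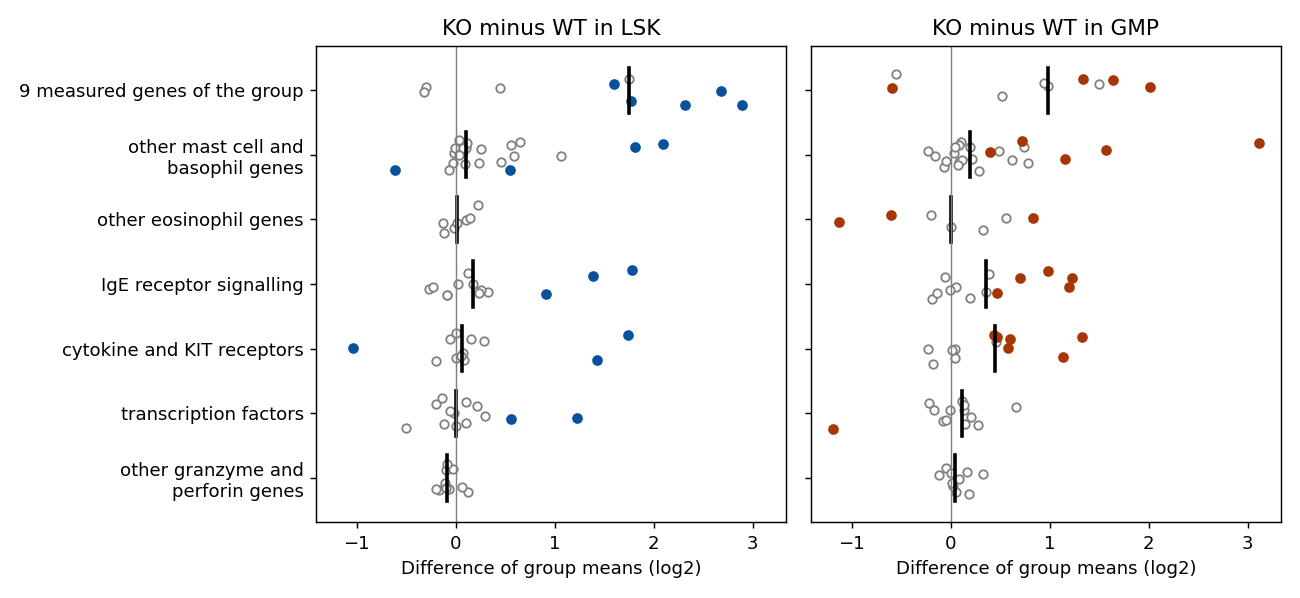
Differences of group means (log2, x axis) for every measured gene of 7 lists, KO minus WT in LSK on the left and in GMP on the right. Filled circles passed the limma threshold of 0.05, open circles did not, vertical scatter is for display, and the black bar is the list's median. The 9 measured genes have medians of 1.75 and 0.99. The 10 other granzyme and perforin genes, among them the dim Gzma and Gzmc, have -0.09 and 0.04 with no filled circle.

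For the 3 members with the widest range of group means, Prg2, Prss34 and Mcpt8, the genes with the most similar values over the 12 arrays were listed, as the root mean square difference after centring each gene on its own mean. Nearest to Prg2 were Prg3 at 1.14, Prss34 at 1.19 and Elane, neutrophil elastase, at 1.24 log2 units. Nearest to Prss34 were Mcpt8 at 0.69, Prg3 at 0.70 and Rnase12 at 0.86. Nearest to Mcpt8 were Ms4a2 at 0.50, Gda at 0.56 and Rab7b at 0.56. Prg2 had no gene as near as those listed for Prss34 and Mcpt8. The points share 4 groups of 3 arrays, so these values mostly describe the group means.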

How the data were processed

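The deposited table holds log2 values on 12 arrays, which the authors made with RMA per the submitters' processing notes. RMA corrects background, equalises the arrays' distributions and joins the probes of each set into a single value. The software, version and genome build were not given in the sources used here. A total of 34760 probe sets were read, 21640 of them with a single symbol in the annotation used here. They gave 19937 genes, each with the probe set of the highest mean. No filter on dim genes was applied. The number of arrays limits the precision.

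The 4 groups were fitted together with limma 3.58.1 in R 4.3.3 (lmFit and eBayes, two-sided, with 8 residual degrees of freedom and 5.16 from the prior), with 5 contrasts. The script was tested on simulated data. All 10 members were to be named. From each other list up to 3 genes a direction, those with the smallest p that passed, were to be named. Not all of these are named in the text, and some genes beyond them are. Members and lists were chosen with earlier results of these data known. A total of 20 alternative settings were tried, among them another normalization, a filter, array weights, the replicate number as a block and each array left out. No arrays were identical. Promoter windows are from RefSeq, assembly GRCm38.p6.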

Additional observations from a re-analysis of the deposited data

Results flagged for a closer look

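Hdc is listed because its response to the loss of Lamtor2 differed between the cell types in a test of the difference itself. The effect in LSK minus the effect in GMP was 2.32 (SE 0.45, limma adjusted p = 0.00846). In LSK all 3 KO arrays were above the 3 WT arrays, and in GMP all 3 were below. The GMP effect alone did not pass (-0.55, limma adjusted p = 0.289). Under the alternatives run the difference ranged from 1.94 to 2.63, with limma adjusted p from 0.00496 to 0.0284.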

How the results depend on the processing

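Of the 5 counts of members called, all but that of the difference between effects stayed within 1.5 times their values. For KO against WT in LSK the count was 4 to 6 with single arrays left out and 5 to 6 under the other settings. In GMP it was 3 to 6 and 4 to 5. Between WT populations it was 7 to 9 in both cases, and between KO populations 5 to 7 in both. The members whose effect differed between cell types ran from 1 to 4 with single arrays left out, 4 without GMP KO replicate 2 and 2 without LSK WT replicate 2. Small differences changed sign with single arrays left out. The Mcpt8 difference between cell types ran from -0.37 to 0.26 and that of Fcer1a from -0.25 to 0.78. Gzmb in GMP ran from -0.13 to 0.99, Gzmb between KO LSK and KO GMP from -0.10 to 1.05, and Prg2 in LSK from -0.89 to 0.16. The Mcpt8 difference was also 0.0584 with arrays centred on their medians. With the replicate block, that is the replicate number as a term, the members called were 6 in LSK, 5 in GMP, 1 between effects, 9 between WT and 7 between KO populations. Fcer1a was the sole member whose call changed (limma adjusted p of 0.0338 in LSK, 0.0277 in GMP and 0.0439 between KO populations). The correlations of same-numbered arrays of a genotype ran from -0.18 to 0.18, so the numbers were not taken to pair arrays.

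Counts over all genes moved more: 886 in LSK became 455 to 1672 with single arrays left out and 1734 with array weights, and 3212 in GMP became 1853 without GMP WT replicate 2 and 1778 with GMP arrays alone. The 1591 between effects became 800 without GMP WT replicate 2, and the 3160 between KO populations 1667 without LSK KO replicate 3 and 1327 in their own fit. With arrays centred on their medians, 913 genes rose and 2781 fell in GMP, beside 1153 and 2059, and 1563 were higher and 2989 lower in WT LSK, beside 2047 and 1858. Between effects, 1577 and 376 genes passed with centring and 586 and 499 with repeated quantile normalization, beside 1064 and 527. The causes were not tested. With 3 arrays a group, differences near the dim mark have the least support. The fit of the compared groups alone gives no difference between cell types.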
